A study of Mus musculus with 27 samples.

Results

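The 32 genes described here were chosen by name as known genes of B cells, and all 32 were measured among 18194 genes on the arrays. The rule itself used no measured value, but the list was chosen with earlier results of these data known. Its counts therefore describe the list and are not an independent test of it. They cover the signalling chains of the B cell receptor, the kinases and adaptors behind it, surface molecules that tune it, receptors for homing and survival, and transcription regulators. B cells are the lymphocytes that recognise antigen through a membrane immunoglobulin and mature into antibody-secreting plasma cells. Their receptor signals through a pair of immunoglobulin-associated chains to Src-family and Tec-family kinases, an adaptor and a phospholipase, and the response is raised or damped by coreceptors on the same membrane. In the lung, B cells circulate through the capillary bed, reside in small numbers in the tissue and gather in lymphoid aggregates and in the lymph nodes of the mediastinum, and small resting lymphocytes are among the cells most easily killed by ionizing radiation.

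The arrays measured lung RNA of female mice that received whole thorax X-ray irradiation at 10-12 weeks of age, with the head, abdomen and forelimbs shielded, and were culled 24 hours later. Mice of 3 inbred strains, C57L/J, C57BL/6J (BL6) and CBA/J, each received a single dose of 12.5 Gy, 15 Gy or 0 Gy (sham), with 3 mice in each of the 9 groups, 1 array per mouse and no pooling of RNA. The labels assign mixed pneumonitis and fibrosis to C57L/J, fibrosis with mild pneumonitis to C57BL/6J and pneumonitis only to CBA/J, and the study asked which early transcripts follow dose and strain. One lobe of the lung holds every cell type of the organ, so that fewer B cells and less RNA per B cell cannot be told apart in these values. A value is the log2 of the array's hybridisation intensity for the brightest probe set of a gene, and a difference of 1 on that scale is a 2-fold difference in intensity. A gene is called changed at an unadjusted p below 0.01, the study's own criterion, and the p adjusted over all 18194 genes (Benjamini-Hochberg) is given beside it.

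Several arrays stood apart before any B cell gene was considered. Transcripts of skeletal muscle (10 markers such as *Acta1* and *Ckm*) lay 2.88 to 8.31 above the median of the arrays on 9 arrays, of C57L/J at 15 Gy (replicate 3), C57BL/6J at 12.5 Gy (1 and 2), C57BL/6J at 15 Gy (2 and 3), CBA/J at 12.5 Gy (2 and 3) and CBA/J at 0 Gy (1 and 2), and no more than 0.34 above it on the other 18. *Glycam1*, made by the high endothelial venules of lymph nodes, read 12.38 on C57L/J 15 Gy replicate 3, 10.52 on C57BL/6J 15 Gy replicate 2 and 10.52 on CBA/J 0 Gy replicate 3, and at most 6.40 on all others. Thyroglobulin (*Tg*), made by the thyroid, read 14.30 on C57L/J 15 Gy replicate 3, 13.46 on C57BL/6J 15 Gy replicate 2 and 15.07 on CBA/J 12.5 Gy replicate 3, and at most 5.63 on all others. The first of these arrays also held *Rag1*, a recombinase gene of thymocytes, at 10.67, and had a mean T cell marker level of 8.84 (11 of 12 listed markers measured), against 5.99 and 6.27 on the other 15 Gy arrays of the strain and 7.30 to 7.89 in its sham lungs. It gave the highest value of its group for 20 of the 32 B cell genes, and C57BL/6J 15 Gy replicate 2 did so for 26 of 32. The mean over the 32 genes was 8.47 on this C57L/J array, against 7.65 and 8.24 on the other C57L/J lungs given 15 Gy. It was 8.65 on the C57BL/6J array, against 8.03 and 7.91 on the other C57BL/6J lungs given 15 Gy. CBA/J 12.5 Gy replicate 3, with the highest muscle level, *Tg* and *Rag1* at 8.20, gave the lowest value of its group for 23 of 32. Such counts also arose on arrays without raised levels of these transcripts. C57L/J replicate 1 was lowest for 26 genes at 15 Gy and for 23 at 0 Gy, and CBA/J 12.5 Gy replicate 1 was highest for 22. The remaining array with *Glycam1*, CBA/J 0 Gy replicate 3, was highest for 12. The same counts over all genes were not made. Surfactant protein C (*Sftpc*), the defining transcript of alveolar type II cells, lay between 14.23 and 14.93 on all 27 arrays. Leaving out the 9 muscle arrays leaves 1 array each in C57BL/6J at 12.5 and 15 Gy and in CBA/J at 12.5 and 0 Gy, so values without them come from 1 fit of the other 18 arrays, in which a lone array is assumed to vary like the other groups. The part of lymph node, thymus, thyroid or muscle RNA in the B cell values was not tested beyond the counts without the muscle arrays, the *Glycam1* arrays or 1 array at a time. No fit left out all arrays with raised *Rag1*.

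**Figure D1:**
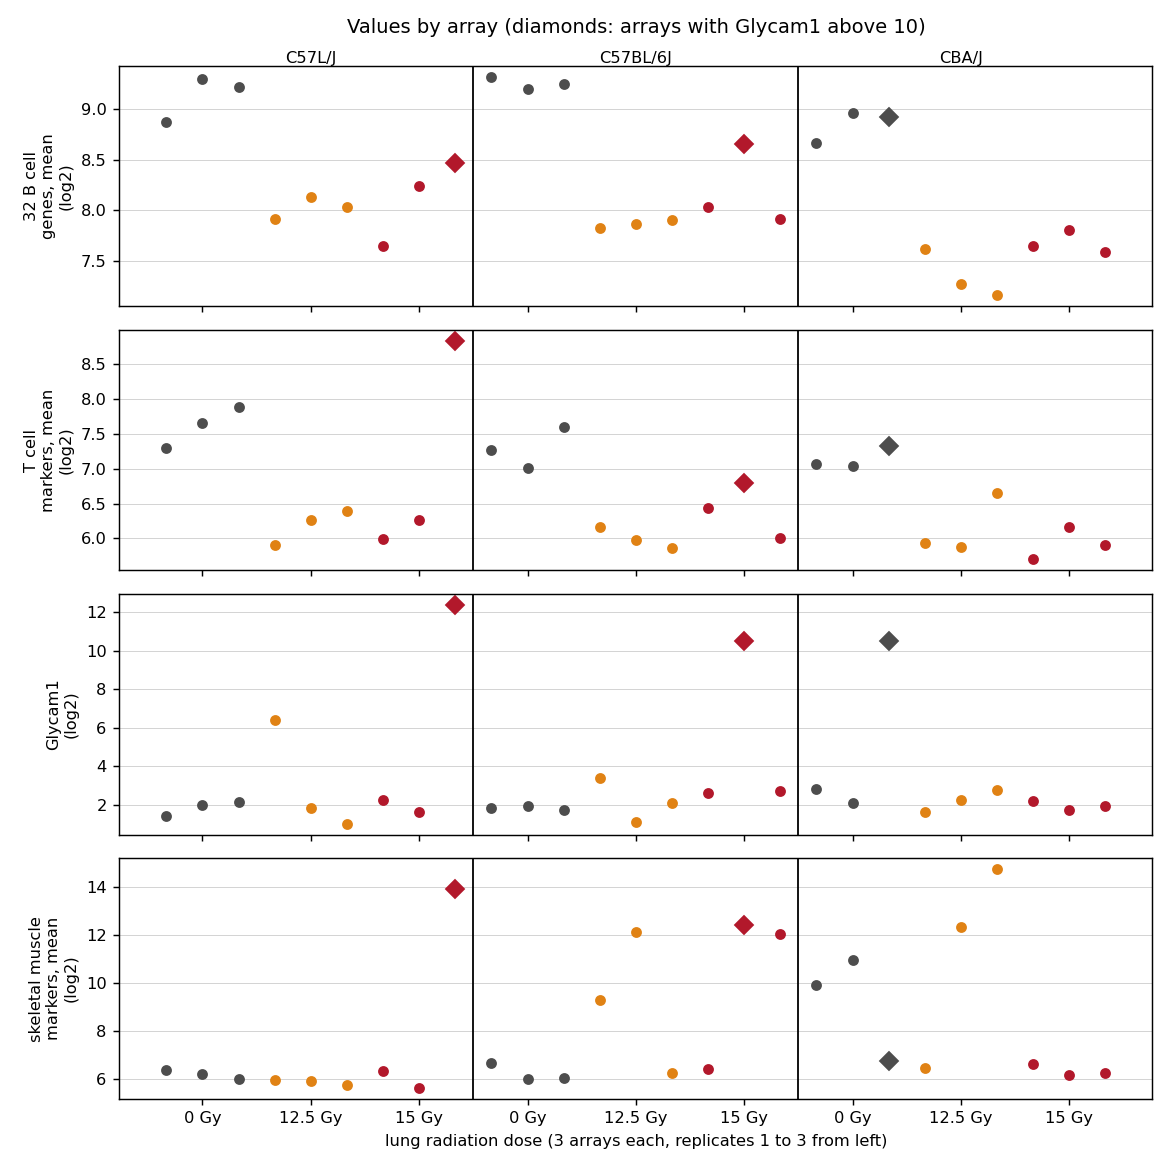
Mean log2 intensity of the 32 B cell genes, mean of the measured T cell markers, *Glycam1* and mean of the 10 skeletal muscle markers on each of the 27 arrays, by strain and dose; diamonds mark the 3 arrays with *Glycam1* above 10. In each strain every irradiated array lies below every sham array in the B cell mean, and the diamonds of both 15 Gy groups are the highest of their group.

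Across the 3 strains nearly the whole list was lower 24 hours after irradiation. In the fit on all 27 arrays, 29 of the 32 genes were lower in irradiated lungs at p below 0.01, where 9.34% of all genes were lower. None was higher, where 6.57% of all genes were, and all 29 also passed the adjusted threshold of 0.05, as did 8.49% of all genes. The median change of the 32 genes was -1.43, or 37.1% of the sham level, beside a median of -0.01 over all genes. The falls ranged up to 2.04 for *Cd79a*. The genes that were not called were *Cd24a*, *Pax5* and *Ebf1*. With the arrays carrying *Glycam1* left out the count stayed 29 with a median of -1.48, and without the 9 muscle arrays it was 29 with a median of -1.50. Leaving out any single array of the 27 also gave 29. Groups could be separated array by array as well. For 18 of the 32 genes every irradiated array lay below every sham array in each of the 3 strains, a pattern shared by 1.2% of all genes. Within 1 strain this held for 22 genes in C57L/J (4.85% of all genes), 25 in C57BL/6J (7.23%) and 25 in CBA/J (5.85%). Without the *Glycam1* arrays, which leaves 2 sham arrays in CBA/J, 23 genes were separated in all 3 strains, as were 1.91% of all genes.

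**Figure D2:**
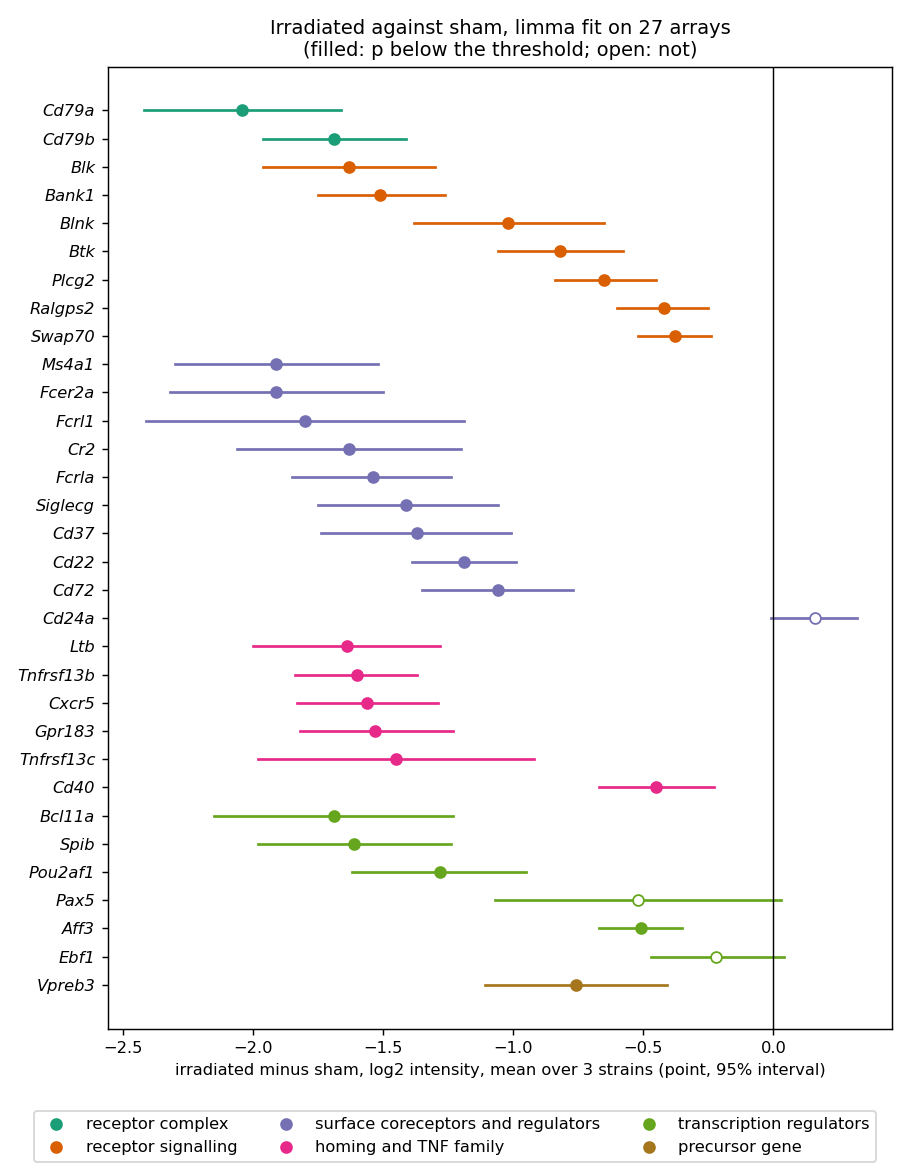
Change of each of the 32 genes, irradiated minus sham on the log2 scale, averaged over 3 strains, with its 95% interval from the limma fit on 27 arrays, coloured by role; filled points have p below 0.01. All 29 filled points lie to the left of 0, from -0.38 for *Swap70* to -2.04 for *Cd79a*, and the 3 open points are *Cd24a*, *Pax5* and *Ebf1*.

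Both signalling chains of the receptor were among the strongest falls. *Cd79a* (1418830_at, chr7:24897497-24901858, coordinates in GRCm38.p6 here and below) and *Cd79b* (1417640_at, chr11:106311341-106314562) encode the immunoglobulin-associated chains without which the receptor neither reaches the surface nor signals. *Cd79a* read 9.11, 9.79 and 9.79 in sham lungs, 7.48, 7.81 and 8.06 at 12.5 Gy and 6.72, 8.33 and 7.78 at 15 Gy in C57L/J mice. C57BL/6J lungs gave *Cd79a* at 9.47, 9.47 and 9.71 in sham lungs, 7.27, 6.78 and 7.19 at 12.5 Gy and 7.80, 8.40 and 7.31 at 15 Gy. CBA/J lungs gave *Cd79a* at 8.99, 9.37 and 8.94 in sham lungs, 7.13, 5.86 and 6.00 at 12.5 Gy and 7.34, 7.67 and 7.64 at 15 Gy. The groups did not overlap in any strain, and the CBA/J lungs given 12.5 Gy held the lowest values of all. *Cd79a* fell by 2.04 ± 0.18 on the log2 scale, to 24.3% of the sham level (adjusted p = 1.6e-07). The log2 intensities of *Cd79b* in C57L/J mice were 9.75, 10.54 and 10.45 in sham lungs, 8.41, 8.69 and 8.76 at 12.5 Gy and 8.06, 9.14 and 8.79 at 15 Gy. For *Cd79b* in C57BL/6J mice they were 10.10, 10.12 and 10.42 in sham lungs, 8.42, 8.14 and 8.17 at 12.5 Gy and 8.60, 9.34 and 8.82 at 15 Gy. For *Cd79b* in CBA/J mice they were 9.61, 9.81 and 9.67 in sham lungs, 8.01, 7.54 and 7.04 at 12.5 Gy and 8.24, 8.20 and 8.21 at 15 Gy. Again no irradiated lung reached a sham lung of its strain, the nearest pair being C57L/J at 9.14 after 15 Gy and 9.75 without irradiation. *Cd79b* fell by 1.69 ± 0.13 on the log2 scale, to 31% of the sham level (adjusted p = 2.88e-08).

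Promoter sequence before the start of a gene was available in the RefSeq table for 26 of the 32 members, as windows of 250 bases before to 50 after an annotated start (GRCm38.p6). Because these genes moved together, the windows were searched on both strands for short motifs of B cell regulators that are themselves on the list or partner with it. The octamer ATTTGCAT, the site of the POU proteins that Pou2af1 coactivates, was present in 2 members (*Blnk* and *Vpreb3*), beside 1.74% of 32851 windows of all genes. The palindrome TCCC-GGGA with any 2 bases between its arms, bound by EBF proteins, was present in 1 member (*Cd22*), beside 0.904% of windows. The Ets-type element GAGGAAGT, of the kind SPI-B binds, was present in 3 members (*Cd37*, *Cd72* and *Fcrl1*), beside 3.2% of windows. The motifs do not overlap in any member window, and a match is a description of the letters, not of a bound site. Only exact matches were counted, so a window without one can still hold a variant of a site. The 150 bases before the annotated start of the window are given for *Cd79a*, which fell most and matched none of the 3, and for *Cd22*, *Blnk* and *Vpreb3*. Matched letters are in capitals. In *Cd22* and *Vpreb3* this start lies inside the gene span printed below, not at its outer end.
Cd79a (chr7:24897347-24897496, + strand): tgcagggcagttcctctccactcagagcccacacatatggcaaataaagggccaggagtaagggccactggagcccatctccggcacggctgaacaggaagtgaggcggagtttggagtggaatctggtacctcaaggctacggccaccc
Cd22 (chr7:30879029-30879178, - strand): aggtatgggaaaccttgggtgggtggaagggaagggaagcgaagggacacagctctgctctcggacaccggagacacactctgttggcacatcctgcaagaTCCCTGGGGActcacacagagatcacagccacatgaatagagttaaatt
Blnk (chr19:40994222-40994371, - strand): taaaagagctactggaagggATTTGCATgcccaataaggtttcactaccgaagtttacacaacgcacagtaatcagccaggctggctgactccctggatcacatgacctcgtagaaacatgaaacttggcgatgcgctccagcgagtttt
Vpreb3 (chr10:75948150-75948299, + strand): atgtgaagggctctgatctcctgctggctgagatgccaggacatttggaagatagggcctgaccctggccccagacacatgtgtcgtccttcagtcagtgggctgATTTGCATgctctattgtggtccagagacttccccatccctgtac
The match lies 49 to 40 bases before this annotated start in *Cd22*, 130 to 123 before it in *Blnk* and 45 to 38 before it in *Vpreb3*, all written on the strand of the gene. Of the genes printed here with a match, *Cd22* changed by -1.19 ± 0.09, *Blnk* by -1.02 ± 0.17 and *Vpreb3* by -0.76 ± 0.17 (log2, SE).

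All 7 genes of receptor signalling were lower, with a median of -0.82, and they split into strong and slight falls. The strong ones were *Blk* (1422775_at, chr14:63372837-63417187), a Src-family kinase largely restricted to the B lineage, and *Bank1* (1456328_at, chr3:136053363-136326141), a B cell scaffold with ankyrin repeats. In C57L/J mice *Blk* stood at 8.90, 9.10 and 9.00 in sham lungs, 7.55, 7.48 and 7.04 at 12.5 Gy and 7.13, 7.57 and 7.58 at 15 Gy. In C57BL/6J mice *Blk* stood at 9.44, 8.99 and 8.77 in sham lungs, 7.15, 7.72 and 6.98 at 12.5 Gy and 7.56, 7.79 and 7.15 at 15 Gy. In CBA/J mice *Blk* stood at 8.05, 8.45 and 8.93 in sham lungs, 7.46, 6.78 and 6.43 at 12.5 Gy and 7.15, 7.29 and 6.09 at 15 Gy. Sham and irradiated lungs did not overlap in any strain, although the CBA/J sham lungs spread widely. *Blk* fell by 1.63 ± 0.16 on the log2 scale, to 32.3% of the sham level (adjusted p = 5.42e-07). *Bank1* read 9.47, 9.80 and 9.83 in sham lungs, 8.25, 8.58 and 8.42 at 12.5 Gy and 8.18, 8.66 and 8.82 at 15 Gy in C57L/J mice. C57BL/6J lungs gave *Bank1* at 9.95, 9.78 and 10.03 in sham lungs, 7.95, 7.95 and 8.19 at 12.5 Gy and 8.17, 9.32 and 8.58 at 15 Gy. CBA/J lungs gave *Bank1* at 9.19, 9.37 and 9.39 in sham lungs, 7.82, 7.59 and 7.11 at 12.5 Gy and 7.55, 7.88 and 7.50 at 15 Gy. The groups were again separate in each strain, with C57BL/6J 15 Gy replicate 2, an array with *Glycam1*, closest to its sham lungs. *Bank1* fell by 1.51 ± 0.12 on the log2 scale, to 35.2% of the sham level (adjusted p = 2.47e-08). *Btk* (1422755_at, chrX:134542334-134583628), the Tec-family kinase that activates phospholipase and is also used by myeloid cells, moved less. The log2 intensities of *Btk* in C57L/J mice were 7.94, 8.53 and 8.57 in sham lungs, 7.77, 7.47 and 7.54 at 12.5 Gy and 7.25, 7.32 and 7.87 at 15 Gy. For *Btk* in C57BL/6J mice they were 8.58, 8.46 and 8.52 in sham lungs, 8.04, 7.27 and 7.66 at 12.5 Gy and 8.34, 8.08 and 7.60 at 15 Gy. For *Btk* in CBA/J mice they were 8.41, 8.46 and 8.25 in sham lungs, 7.52, 7.43 and 6.81 at 12.5 Gy and 7.71, 7.54 and 7.45 at 15 Gy. No irradiated lung reached a sham lung, but C57L/J at 7.87 after 15 Gy lay just under the sham lung at 7.94, and C57BL/6J at 8.34 after 15 Gy just under the sham lung at 8.46. *Btk* fell by 0.82 ± 0.12 on the log2 scale, to 56.6% of the sham level (adjusted p = 5.11e-05).

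Among the remaining signalling genes, *Blnk*, the adaptor that brings Btk to the phospholipase, fell by 1.02 ± 0.17 on the log2 scale, to 49.5% of the sham level (adjusted p = 4.17e-04), and its groups overlapped in C57L/J and CBA/J. *Plcg2*, the phospholipase itself, which myeloid and NK cells also use, fell by 0.65 ± 0.09 on the log2 scale, to 63.9% of the sham level (adjusted p = 7.41e-05), and its groups overlapped in C57L/J. *Ralgps2*, an exchange factor for Ral GTPases, fell by 0.42 ± 0.08 on the log2 scale, to 74.6% of the sham level (adjusted p = 0.00155), and its groups overlapped in CBA/J. *Swap70*, an actin-binding exchange factor found in B cells, mast cells and dendritic cells, fell by 0.38 ± 0.07 on the log2 scale, to 77% of the sham level (adjusted p = 6.15e-04), the smallest called fall of the list, yet its irradiated lungs lay below the sham lungs in all 3 strains.

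**Figure D3:**
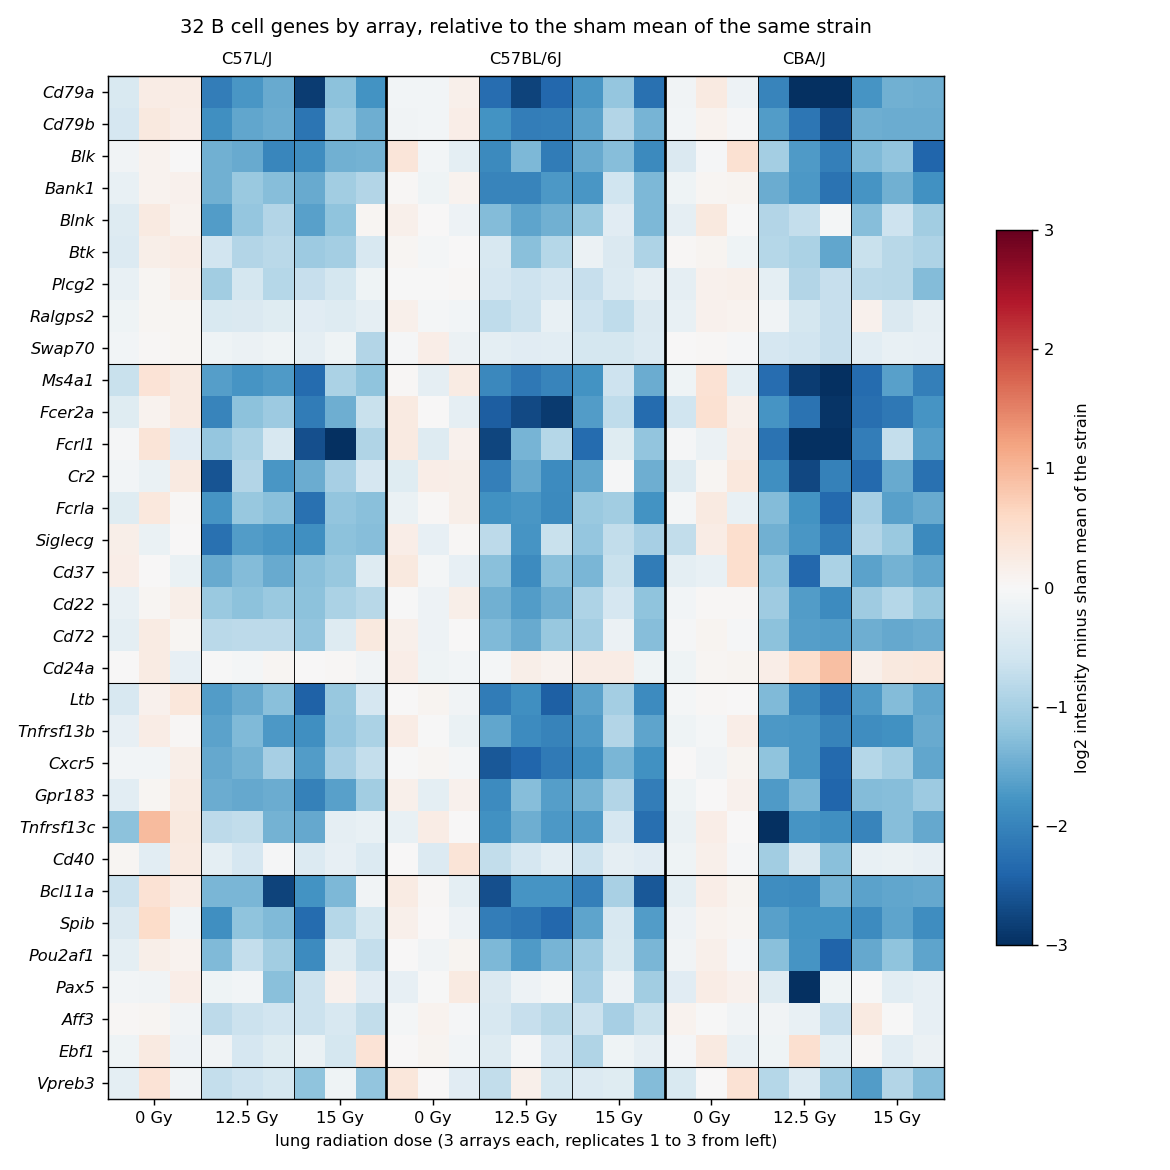
Log2 intensity of each of the 32 genes on each array minus the mean of the sham lungs of the same strain, with genes in rows by role and arrays in columns by strain and dose; blue is lower and red higher than sham, and colours saturate at 3. Most rows are blue in all 6 irradiated groups, the rows of *Cd24a*, *Ebf1*, *Aff3* and *Swap70* are pale, as is that of *Pax5* apart from 1 dark CBA/J array, and the palest columns within the 15 Gy groups are C57L/J replicate 3 and C57BL/6J replicate 2.

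Of the 10 surface coreceptors and regulators, 9 were lower and the median was -1.48. *Ms4a1* (1423226_at, chr19:11249679-11266149) encodes CD20, the pan-B cell membrane protein. In C57L/J mice *Ms4a1* stood at 10.29, 11.37 and 11.23 in sham lungs, 9.30, 9.19 and 9.27 at 12.5 Gy and 8.65, 10.01 and 9.75 at 15 Gy. In C57BL/6J mice *Ms4a1* stood at 11.19, 10.88 and 11.40 in sham lungs, 9.22, 9.01 and 9.17 at 12.5 Gy and 9.36, 10.53 and 9.66 at 15 Gy. In CBA/J mice *Ms4a1* stood at 10.62, 11.20 and 10.46 in sham lungs, 8.47, 7.91 and 7.16 at 12.5 Gy and 8.45, 9.13 and 8.72 at 15 Gy. Every irradiated lung was below every sham lung of its strain, and C57L/J 15 Gy replicate 2 came nearest. *Ms4a1* fell by 1.91 ± 0.19 on the log2 scale, to 26.7% of the sham level (adjusted p = 7.03e-07). *Cd22* (1419768_at, chr7:30865404-30880342), a sialic acid-binding inhibitor of receptor signalling, is the gene whose promoter window carried the EBF palindrome above. *Cd22* read 10.04, 10.33 and 10.45 in sham lungs, 9.15, 9.05 and 9.17 at 12.5 Gy and 9.04, 9.32 and 9.44 at 15 Gy in C57L/J mice. C57BL/6J lungs gave *Cd22* at 10.23, 10.09 and 10.41 in sham lungs, 8.80, 8.57 and 8.77 at 12.5 Gy and 9.32, 9.75 and 9.03 at 15 Gy. CBA/J lungs gave *Cd22* at 9.78, 9.92 and 9.92 in sham lungs, 8.80, 8.20 and 7.99 at 12.5 Gy and 8.81, 9.02 and 8.74 at 15 Gy. The replicates were tight and the groups separate, so that a moderate fall had one of the lowest p-values of the list. *Cd22* fell by 1.19 ± 0.09 on the log2 scale, to 43.9% of the sham level (adjusted p = 3.69e-08). *Fcrla* (1425802_a_at, chr1:170917594-170932216), an Fc receptor-like protein kept in the endoplasmic reticulum of B cells, was lower as well. The log2 intensities of *Fcrla* in C57L/J mice were 7.59, 8.28 and 8.0 in sham lungs, 6.19, 6.83 and 6.70 at 12.5 Gy and 5.72, 6.77 and 6.70 at 15 Gy. For *Fcrla* in C57BL/6J mice they were 7.79, 8.04 and 8.17 in sham lungs, 6.18, 6.26 and 6.09 at 12.5 Gy and 6.89, 6.95 and 6.21 at 15 Gy. For *Fcrla* in CBA/J mice they were 7.54, 7.88 and 7.38 in sham lungs, 6.29, 5.80 and 5.26 at 12.5 Gy and 6.61, 5.96 and 6.10 at 15 Gy. The groups did not overlap in any strain. *Fcrla* fell by 1.54 ± 0.15 on the log2 scale, to 34.3% of the sham level (adjusted p = 4.76e-07).

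*Fcer2a*, which encodes the low-affinity IgE receptor CD23 of follicular B cells, fell by 1.91 ± 0.20 on the log2 scale, to 26.6% of the sham level (adjusted p = 1.36e-06). *Fcrl1*, an activating Fc receptor-like protein, fell by 1.80 ± 0.29 on the log2 scale, to 28.7% of the sham level (adjusted p = 2.5e-04), with a wide spread between replicates. *Cr2*, the complement receptor of mature B cells, fell by 1.63 ± 0.21 on the log2 scale, to 32.3% of the sham level (adjusted p = 1.53e-05). *Siglecg*, a second sialic acid-binding inhibitor, fell by 1.41 ± 0.16 on the log2 scale, to 37.7% of the sham level (adjusted p = 5.94e-06). *Cd37*, a leukocyte tetraspanin, fell by 1.37 ± 0.17 on the log2 scale, to 38.6% of the sham level (adjusted p = 1.6e-05). *Cd72*, an inhibitory lectin-like partner of the receptor, fell by 1.06 ± 0.14 on the log2 scale, to 48% of the sham level (adjusted p = 2.27e-05). The irradiated lungs of all 3 strains stayed below the sham lungs for *Fcer2a*, *Siglecg* and *Cd37*, whereas *Cr2* and *Fcrl1* overlapped in C57BL/6J and *Cd72* in C57L/J, in each case through an array with *Glycam1*.

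*Cd24a* (1448182_a_at, chr10:43579169-43584265), the small glycosylated surface protein CD24, was the only member with a change above 0. It is a marker of immature B cells but is also abundant on epithelial cells. In C57L/J mice *Cd24a* stood at 13.72, 13.95 and 13.47 in sham lungs, 13.71, 13.65 and 13.78 at 12.5 Gy and 13.72, 13.74 and 13.60 at 15 Gy. In C57BL/6J mice *Cd24a* stood at 14.14, 13.80 and 13.86 in sham lungs, 13.87, 14.10 and 14.05 at 12.5 Gy and 14.16, 14.15 and 13.80 at 15 Gy. In CBA/J mice *Cd24a* stood at 13.06, 13.24 and 13.26 in sham lungs, 13.38, 13.70 and 14.10 at 12.5 Gy and 13.35, 13.47 and 13.51 at 15 Gy. The groups overlapped in C57L/J and C57BL/6J, while in CBA/J all 6 irradiated lungs lay above the 3 sham lungs. Over 3 strains *Cd24a* changed by 0.16 ± 0.08 (adjusted p = 0.2), which did not pass, and its 2 dimmer probe sets changed by 0.42 and 0.25. With the mean of its probe sets in place of the brightest, the change was 0.28 and passed the unadjusted threshold.

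**Figure D4:**
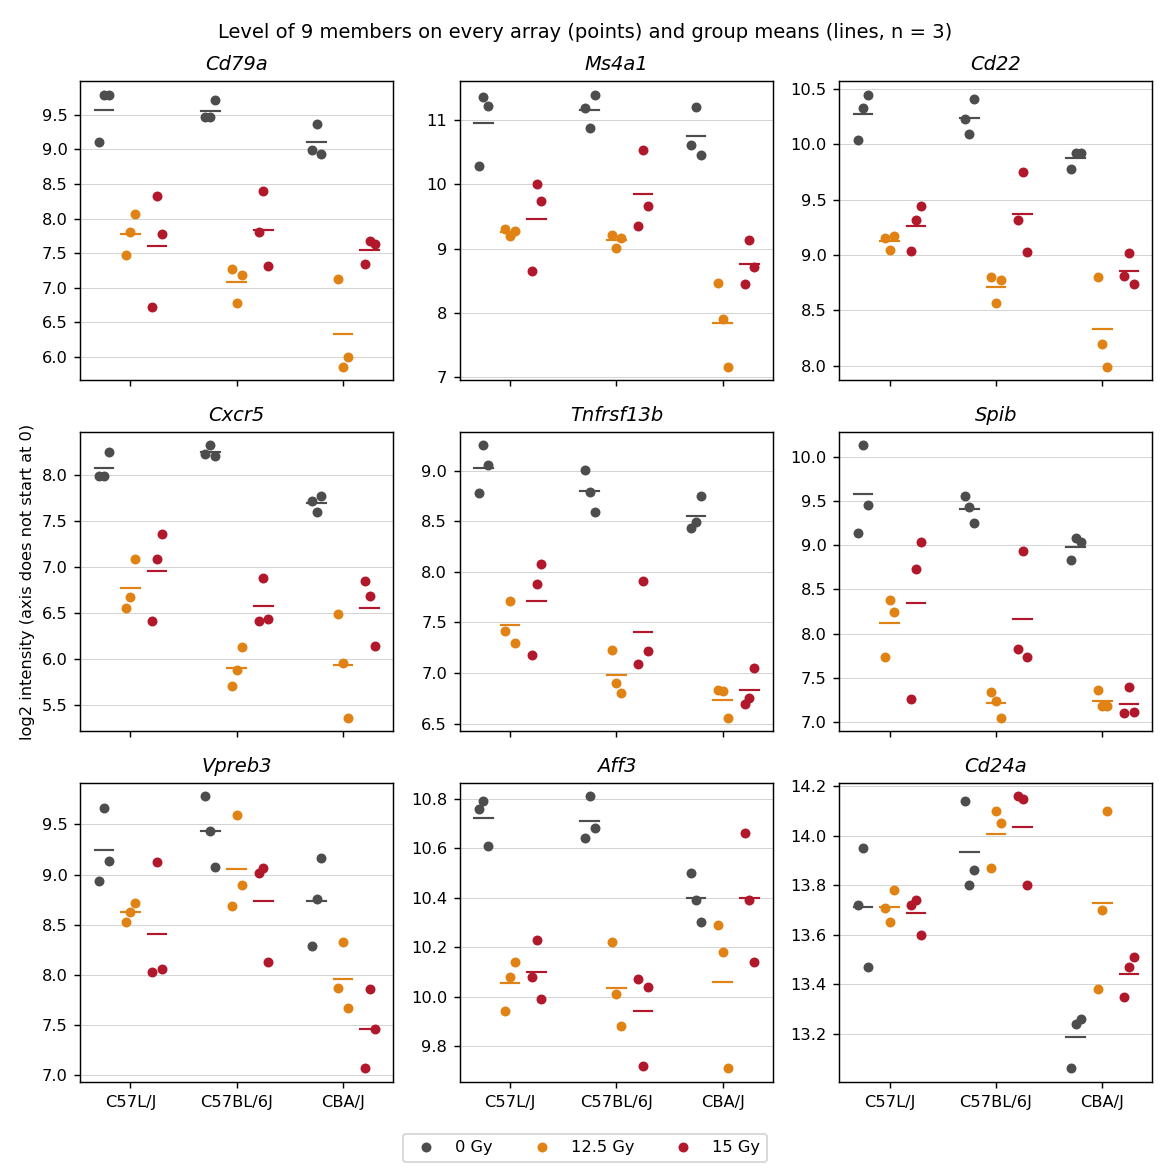
Log2 intensity of 9 members on every array (points) with group means (lines, n = 3 mice), by strain, with the doses 0, 12.5 and 15 Gy from left to right within each strain; each panel has its own axis, which does not start at 0. *Cd79a*, *Ms4a1*, *Cd22*, *Cxcr5*, *Tnfrsf13b* and *Spib* show no overlap of irradiated with sham lungs in any strain, whereas *Vpreb3*, *Aff3* (in CBA/J) and *Cd24a* (in C57L/J and C57BL/6J) do.

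The genes for homing and of the TNF family were lower as a group, 6 of 6, with a median of -1.54. *Tnfrsf13b* (1423182_at, chr11:61126283-61153170) encodes TACI, a receptor for the B cell survival factors BAFF and APRIL that plasma cells carry as well. *Tnfrsf13b* read 8.78, 9.25 and 9.06 in sham lungs, 7.42, 7.71 and 7.30 at 12.5 Gy and 7.18, 7.88 and 8.08 at 15 Gy in C57L/J mice. C57BL/6J lungs gave *Tnfrsf13b* at 9.01, 8.79 and 8.59 in sham lungs, 7.23, 6.90 and 6.80 at 12.5 Gy and 7.09, 7.91 and 7.22 at 15 Gy. CBA/J lungs gave *Tnfrsf13b* at 8.43, 8.49 and 8.75 in sham lungs, 6.83, 6.82 and 6.56 at 12.5 Gy and 6.69, 6.75 and 7.05 at 15 Gy. No irradiated lung overlapped a sham lung, and the difference had the lowest p of the 32 genes. *Tnfrsf13b* fell by 1.60 ± 0.11 on the log2 scale, to 32.9% of the sham level (adjusted p = 7.83e-09). *Cxcr5* (1422003_at, chr9:44511787-44526444) is the chemokine receptor that guides B cells into follicles. The log2 intensities of *Cxcr5* in C57L/J mice were 7.99, 7.99 and 8.25 in sham lungs, 6.55, 6.67 and 7.08 at 12.5 Gy and 6.41, 7.09 and 7.36 at 15 Gy. For *Cxcr5* in C57BL/6J mice they were 8.23, 8.32 and 8.20 in sham lungs, 5.70, 5.88 and 6.13 at 12.5 Gy and 6.41, 6.88 and 6.43 at 15 Gy. For *Cxcr5* in CBA/J mice they were 7.72, 7.60 and 7.77 in sham lungs, 6.49, 5.95 and 5.36 at 12.5 Gy and 6.84, 6.68 and 6.14 at 15 Gy. The sham lungs of a strain lay close together and far above the irradiated ones. *Cxcr5* fell by 1.56 ± 0.13 on the log2 scale, to 33.9% of the sham level (adjusted p = 5.37e-08). *Gpr183* (1437356_at, chr14:121952331-121965193), the oxysterol receptor EBI2 that positions B cells at the follicle edge, followed the same pattern. In C57L/J mice *Gpr183* stood at 8.0, 8.37 and 8.55 in sham lungs, 6.83, 6.77 and 6.81 at 12.5 Gy and 6.29, 6.67 and 7.27 at 15 Gy. In C57BL/6J mice *Gpr183* stood at 8.33, 7.88 and 8.29 in sham lungs, 6.28, 6.90 and 6.51 at 12.5 Gy and 6.76, 7.29 and 6.09 at 15 Gy. In CBA/J mice *Gpr183* stood at 8.03, 8.18 and 8.30 in sham lungs, 6.48, 6.80 and 5.78 at 12.5 Gy and 6.87, 6.90 and 7.07 at 15 Gy. Its groups were separate in all 3 strains. *Gpr183* fell by 1.53 ± 0.14 on the log2 scale, to 34.7% of the sham level (adjusted p = 3.71e-07), but by 0.69 at its second probe set.

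*Ltb*, the lymphotoxin beta chain by which B cells and other lymphocytes organise lymphoid stroma, fell by 1.64 ± 0.17 on the log2 scale, to 32.1% of the sham level (adjusted p = 1.72e-06), with separate groups in each strain. *Tnfrsf13c*, the BAFF receptor, fell by 1.45 ± 0.25 on the log2 scale, to 36.6% of the sham level (adjusted p = 4.96e-04), and in C57L/J it overlapped because sham replicate 1 read 6.13 against 8.31 and 7.65 in the other sham lungs. *Cd40*, the receptor for T cell help that dendritic and endothelial cells share, fell by 0.45 ± 0.11 on the log2 scale, to 73.2% of the sham level (adjusted p = 0.00598), and its groups overlapped in both C57 strains. Ligands and partners outside the 32 genes were not called. Of 13 listed genes 9 were measured (among them *Cxcl13*, *Tnfsf13b* for BAFF, *Cd40lg*, *Ltbr* and the oxysterol enzymes *Ch25h*, *Cyp7b1* and *Hsd3b7*), none was called, and their median was 0.07, with *Cyp7b1* at 0.24 ± 0.12 having the lowest p (adjusted p = 0.197).

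The transcription regulators divided, with 4 of 6 lower and a median of -0.90. *Spib* (1460407_at, chr7:44525995-44532087), an Ets-family activator of B cells and plasmacytoid dendritic cells, was lower in every strain. *Spib* read 9.14, 10.13 and 9.46 in sham lungs, 7.73, 8.38 and 8.25 at 12.5 Gy and 7.26, 8.73 and 9.04 at 15 Gy in C57L/J mice. C57BL/6J lungs gave *Spib* at 9.56, 9.43 and 9.25 in sham lungs, 7.34, 7.24 and 7.05 at 12.5 Gy and 7.83, 8.94 and 7.73 at 15 Gy. CBA/J lungs gave *Spib* at 8.83, 9.08 and 9.04 in sham lungs, 7.36, 7.18 and 7.18 at 12.5 Gy and 7.10, 7.40 and 7.11 at 15 Gy. Groups were separate, but the C57L/J lungs given 15 Gy ranged almost up to the lowest sham lung. *Spib* fell by 1.61 ± 0.18 on the log2 scale, to 32.8% of the sham level (adjusted p = 2.9e-06). *Pou2af1* (1416957_at, chr9:51213690-51240079), the coactivator OCA-B that works through the octamer, was lower as well. The log2 intensities of *Pou2af1* in C57L/J mice were 8.76, 9.23 and 9.17 in sham lungs, 7.74, 8.34 and 8.0 at 12.5 Gy and 7.17, 8.67 and 8.33 at 15 Gy. For *Pou2af1* in C57BL/6J mice they were 9.10, 8.97 and 9.17 in sham lungs, 7.74, 7.39 and 7.69 at 12.5 Gy and 7.98, 8.62 and 7.72 at 15 Gy. For *Pou2af1* in CBA/J mice they were 8.55, 8.81 and 8.61 in sham lungs, 7.40, 6.89 and 6.25 at 12.5 Gy and 7.13, 7.45 and 7.08 at 15 Gy. Its groups did not overlap, and the nearest irradiated lungs were C57L/J 15 Gy replicate 2 and C57BL/6J 15 Gy replicate 2. *Pou2af1* fell by 1.28 ± 0.16 on the log2 scale, to 41% of the sham level (adjusted p = 1.17e-05). *Bcl11a* (1456632_at, chr11:24076564-24173558), a zinc finger protein required for B cell development, was lower at all 7 of its probe sets, which changed by -0.34 to -1.93.

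In C57L/J mice *Bcl11a* stood at 7.14, 8.22 and 8.0 in sham lungs, 6.41, 6.42 and 5.02 at 12.5 Gy and 5.99, 6.45 and 7.68 at 15 Gy. In C57BL/6J mice *Bcl11a* stood at 8.28, 8.07 and 7.74 in sham lungs, 5.40, 6.25 and 6.25 at 12.5 Gy and 5.97, 7.06 and 5.49 at 15 Gy. In CBA/J mice *Bcl11a* stood at 7.21, 7.69 and 7.59 in sham lungs, 5.63, 5.62 and 6.08 at 12.5 Gy and 5.89, 5.94 and 5.95 at 15 Gy. In C57L/J the *Glycam1* array at 7.68 exceeded the lowest sham lung, and the other strains were separate. *Bcl11a* fell by 1.69 ± 0.22 on the log2 scale, to 31.1% of the sham level (adjusted p = 2.27e-05). *Aff3* (1433939_at, chr1:38175393-38630178), a nuclear protein first known from lymphoid cells, was the only member called, unadjusted, for a difference in response between strains. *Aff3* read 10.76, 10.79 and 10.61 in sham lungs, 9.94, 10.08 and 10.14 at 12.5 Gy and 10.08, 10.23 and 9.99 at 15 Gy in C57L/J mice. C57BL/6J lungs gave *Aff3* at 10.64, 10.81 and 10.68 in sham lungs, 10.22, 10.01 and 9.88 at 12.5 Gy and 10.07, 9.72 and 10.04 at 15 Gy. CBA/J lungs gave *Aff3* at 10.50, 10.39 and 10.30 in sham lungs, 10.29, 10.18 and 9.71 at 12.5 Gy and 10.66, 10.39 and 10.14 at 15 Gy. Irradiated lungs were below sham lungs in both C57 strains and overlapped them in CBA/J. Over 3 strains *Aff3* fell by 0.51 ± 0.08 on the log2 scale, to 70.2% of the sham level (adjusted p = 9.32e-05).

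*Pax5*, the factor that fixes B cell identity, and *Ebf1*, which acts before it and is also expressed in stromal cells and adipocytes, were not called. *Pax5* changed by -0.52 ± 0.26 (adjusted p = 0.208), its mean level of 5.96 being the only one of the 32 below 6, and with the mean of its probe sets the change was -0.48 and passed the unadjusted threshold. *Ebf1* changed by -0.22 ± 0.12 (adjusted p = 0.265), and its other 4 probe sets by -0.10 to 0.08. *Vpreb3* (1422921_at, chr10:75943024-75949657), a surrogate light chain-like protein that binds nascent immunoglobulin in precursor and some mature B cells, carried the octamer in its promoter window above. The log2 intensities of *Vpreb3* in C57L/J mice were 8.94, 9.66 and 9.13 in sham lungs, 8.53, 8.63 and 8.72 at 12.5 Gy and 8.03, 9.12 and 8.06 at 15 Gy. For *Vpreb3* in C57BL/6J mice they were 9.78, 9.43 and 9.08 in sham lungs, 8.69, 9.59 and 8.90 at 12.5 Gy and 9.02, 9.07 and 8.13 at 15 Gy. For *Vpreb3* in CBA/J mice they were 8.29, 8.76 and 9.16 in sham lungs, 7.87, 8.33 and 7.67 at 12.5 Gy and 7.07, 7.86 and 7.46 at 15 Gy. Irradiated and sham lungs overlapped in each strain. *Vpreb3* fell by 0.76 ± 0.17 on the log2 scale, to 59% of the sham level (adjusted p = 0.00383).

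By strain and dose the falls were present in each of the 6 groups, and no member was higher at p below 0.01 in any of them. The share of all genes that were higher at 12.5 Gy was 1.68% for C57L/J, 0.978% for C57BL/6J and 0.94% for CBA/J, and at 15 Gy it was 0.786% for C57L/J, 1.59% for C57BL/6J and 2.41% for CBA/J. In C57L/J, 22 of 32 genes were lower at 12.5 Gy (2.85% of all genes), 7 of them after adjustment (0.324%), with a median of -1.26. At 15 Gy, 11 were lower (1.08% of all genes) and none after adjustment, with a median of 49.9% of the sham level and all 32 changes below 0. At an unadjusted p below 0.05 the count at 15 Gy was 18, where 7.44% of all genes were called in either direction. These counts moved when single arrays were left out. The share of all genes called in such refits is not given, here or below. A change in the members alone therefore cannot be read from these refits. Without C57L/J 0 Gy replicate 3, 14 genes were called at 12.5 Gy, and 4 at 15 Gy. Without C57L/J 0 Gy replicate 2, 3 genes were called at 15 Gy, whereas without the array with *Glycam1* (15 Gy replicate 3) 15 were called, with a median of -1.26. In C57L/J at 15 Gy *Cd79a* changed by -1.95 (adjusted p = 0.454) and *Blk* by -1.57 (adjusted p = 0.176).

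In C57BL/6J, 23 genes were lower at 12.5 Gy (2.67% of all genes), 16 of them after adjustment (0.363%), with a median of -1.57. The largest was *Fcer2a* at -2.68 (adjusted p = 0.0215), and *Cxcr5* at -2.34 and *Spib* at -2.20 had the lowest adjusted p (0.0206). At 15 Gy, 17 were lower (2.22% of all genes), none after adjustment (0.022%) and 26 at an unadjusted p below 0.05 in either direction (12.5%), with a median of -1.12. Without C57BL/6J 15 Gy replicate 2, the array with *Glycam1*, 24 were called and the median was -1.48. Without C57BL/6J 0 Gy replicate 1, 2 or 3 or 15 Gy replicate 1 or 3 the count was 9, 10, 9, 9 and 11.

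In CBA/J, 22 genes were lower at 12.5 Gy (2.34% of all genes), none after adjustment (0.022%) and 27 at an unadjusted p below 0.05 in either direction (10.6%), with the deepest median of the 6 groups, -1.73. *Fcrl1* changed by -3.26 (adjusted p = 0.0929) and *Ms4a1* by -2.91 (adjusted p = 0.0851). Replicates 2 and 3 of this group carried muscle transcripts, and without all muscle arrays, a comparison of 1 array with 1 (the sham array being the one with *Glycam1*) in the fit of 18, 14 genes were called with a median of -1.32. At 15 Gy, where no CBA/J array carried them, 24 genes were lower (3.2% of all genes), 13 of them after adjustment (0.588%), with a median of -1.41. *Cd72* at -1.49 had the lowest adjusted p (0.0121) and *Cd79b* followed at -1.48 (adjusted p = 0.0126).

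**Figure D5:**
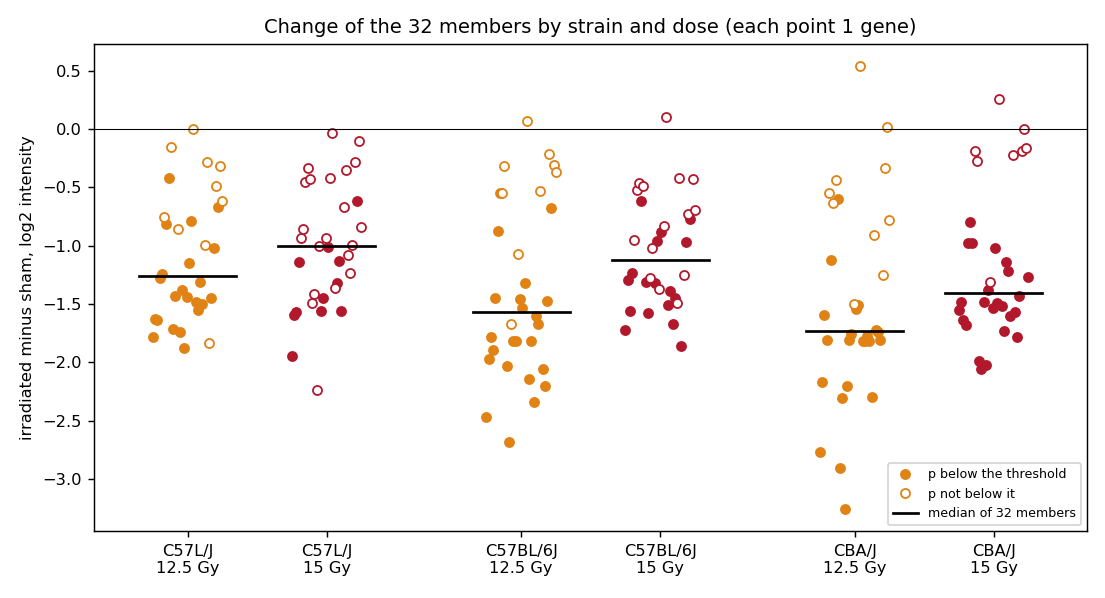
Change of each of the 32 genes against the sham lungs of the same strain, on the log2 scale, by strain and dose; each point is 1 gene, filled where p was below 0.01, and the line is the median of the 32. All 6 medians lie below 0, nearest to it in C57L/J at 15 Gy and farthest, at -1.73, in CBA/J at 12.5 Gy, and no filled point lies above 0.

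No further fall was called at the higher dose. Comparing 15 with 12.5 Gy, none of the 32 genes was called in any strain by limma, where 0.627% of all genes were called in C57L/J, 0.555% in C57BL/6J and 1.27% in CBA/J. At an unadjusted p below 0.05 the counts were 0 in C57L/J (3.15% of all genes), 5 in C57BL/6J (3.17%) and 5 in CBA/J (6.87%). The median difference was 0.13 in C57L/J, 0.37 in C57BL/6J and 0.31 in CBA/J, beside medians of 0.00 to 0.02 over all genes. Of the 32 differences, 23 were above 0 in C57L/J, 26 in C57BL/6J and 24 in CBA/J. These medians moved with single arrays. Without the array with *Glycam1* it was -0.01 in C57L/J and 0.12 in C57BL/6J, with 1 gene called in each, and without the muscle arrays, which leaves 3 arrays against 1, it was 0.02 in CBA/J. Calls also came up without C57BL/6J 15 Gy replicate 3 (3 genes), CBA/J 12.5 Gy replicate 1 (4 genes) and CBA/J 12.5 Gy replicate 2 (1 gene).

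A difference between strains in the size of the response was called for 1 gene. Setting the irradiated-minus-sham difference of one strain against that of another in the fit on 27 arrays, no gene was called for C57L/J against C57BL/6J (1.15% of all genes called; 1 member at an unadjusted p below 0.05, with 4.63% of all genes; median difference 0.12) or for CBA/J against C57L/J (1.14%; 3 members, with 4.7% of all genes; median -0.24). For CBA/J against C57BL/6J 1 gene was called (1.43% of all genes; median -0.08). It was *Aff3*, whose fall was smaller in CBA/J by 0.56 (adjusted p = 0.653), and 1 call among 32 genes beside that share is not a result about the list. For *Cd79a* the response of C57L/J minus that of C57BL/6J was 0.23 (95% interval -0.69 to 1.15) and that of CBA/J minus C57BL/6J was -0.07 (-0.99 to 0.85). In pairwise fits *Aff3* changed by -0.67 and -0.62 in C57L/J at 12.5 and 15 Gy, by -0.68 and -0.77 in C57BL/6J, and by -0.33 and 0.00 in CBA/J. Its call was lost without 1 of several single arrays and without the 3 *Glycam1* arrays, when the difference was 0.45.

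In sham lungs the list lay lower in CBA/J than in C57BL/6J. However, CBA/J sham replicates 1 and 2 held muscle transcripts (3.50 and 4.53 above the median of the arrays) and replicate 3 held *Glycam1* at 10.52. No sham array of either C57 strain held muscle transcripts or *Glycam1* at such levels. Strain and these transcripts therefore cannot be told apart in comparisons with CBA/J sham lungs. *Rag1*, in contrast, was raised on sham arrays of all 3 strains, as given above. Of the 32 genes, 8 were lower in CBA/J at p below 0.01 (*Ltb*, *Cd24a*, *Cxcr5*, *Cd72*, *Bank1*, *Ebf1*, *Ralgps2* and *Blnk*), where 2.74% of all genes were called lower, and none passed adjustment (0.693% of all genes did). The median difference was -0.43, 29 of 32 differences were below 0, and the median over all genes was 0.00. *Cd24a* averaged 13.19 ± 0.11 in CBA/J and 13.93 ± 0.18 in C57BL/6J (SD, n = 3 each), a difference of -0.75 (adjusted p = 0.113, limma). *Ltb* averaged 10.01 ± 0.05 in CBA/J and 10.64 ± 0.10 in C57BL/6J (SD, n = 3 each), a difference of -0.62 (adjusted p = 0.0999, limma). The count fell whichever of the 6 arrays was left out. It was 1 without CBA/J 0 Gy replicate 1, 4 without CBA/J replicate 2 and 4 without replicate 3 (the array with *Glycam1*). Without C57BL/6J replicates 1, 2 and 3 it was 2, 4 and 3.

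Between the 2 C57 strains, sham lungs of C57L/J had 2 genes lower than C57BL/6J (1.73% of all genes called lower), none after adjustment (0.115%), with a median of -0.05 over the 32. *Ralgps2* averaged 9.22 ± 0.11 in C57L/J and 9.96 ± 0.13 in C57BL/6J (SD, n = 3 each), a difference of -0.74 (adjusted p = 0.181, limma). *Cd72* averaged 7.73 ± 0.28 in C57L/J and 8.63 ± 0.15 in C57BL/6J (SD, n = 3 each), a difference of -0.89 (adjusted p = 0.236, limma), and its call was lost without C57BL/6J 0 Gy replicate 1 or 3. Between CBA/J and C57L/J sham lungs no gene was called (6.06% of all genes were, in either direction), 7 had an unadjusted p below 0.05 in limma (15.9% of all genes), and the median was -0.36. Leaving out C57L/J 0 Gy replicate 1 or 3 or CBA/J 0 Gy replicate 3 gave 2, 1 and 1 called genes.

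The genes of the receptor pathway outside the list moved in the same direction but less far. Of 30 listed genes 26 were measured, 14 were lower over the 3 strains, 13 of them after adjustment, none was higher, and the median was -0.33. *Prkcb*, the protein kinase C that B cells use to reach NF-kB, changed by -1.33 ± 0.17 (adjusted p = 1.6e-05). *Syk*, the kinase that docks on the receptor chains, changed by -0.78 ± 0.09 (adjusted p = 5.81e-06). *Pik3cg*, a leukocyte phosphoinositide kinase, changed by -0.58 ± 0.07 (adjusted p = 3.39e-06), and *Rasgrp3*, an activator of Ras in B cells, by -0.73 ± 0.10 (adjusted p = 5.72e-05). Most of these genes are shared with other blood cells.

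Markers of other lymphocytes were lower in the same lungs. Of 12 T cell markers 11 were measured and 9 were lower (median -0.95), with mean levels of 5.70 to 8.84 over the irradiated arrays and 7.01 to 7.89 over the sham arrays. All 5 measured NK cell markers were lower (median -1.04). Of 8 plasma cell markers 3 were lower (median -0.42), namely *Mzb1* at -0.70 ± 0.11, *Prdm1* at -0.58 ± 0.13 and *Tnfrsf13b*, which is also a member here. *Jchain*, the immunoglobulin joining chain of plasma cells, changed by -0.49 ± 0.36 (adjusted p = 0.42). Of 6 lung epithelial markers none was called (median -0.07). Of 5 endothelial markers 2 were lower (median -0.36), the receptor genes *Kdr* at -0.46 ± 0.14 (adjusted p = 0.0267) and *Tek* at -0.45 ± 0.13 (adjusted p = 0.0243). All 6 markers of dividing cells were lower (median -1.04), with *Mki67* at -2.71 ± 0.35 (adjusted p = 1.72e-05) and *Birc5* at -1.90 ± 0.37 (adjusted p = 0.00144). The part of these cells in the B cell values was not tested.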

How the data were processed

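Lung RNA of 27 mice (9 groups of 3, grouped by the strain and dose in the labels) was hybridised to Affymetrix Mouse Genome 430 2.0 arrays. The authors deposited linear intensity values for 45101 probe sets made with Affymetrix Expression Console 1.1, and their methods state quartile normalization (how probes were summarised to probe sets has no description in the sources used). The trimmed mean (2%) of every array was 500, array medians were 127.6 to 167.0, and no depth applies, so the number of arrays limits precision.

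Values below 1 were set to 1 before log2 was taken. In the platform annotation 34958 probe sets had 1 gene symbol, 932 several and 9211 none, and 34754 carried a current RefSeq symbol. The brightest probe set by mean over all arrays stood for each of 18194 genes, and 17 of the 32 members had 1 probe set. Each dose and sham comparison was fitted with limma 3.58.1 (R 4.3.3, lmFit and eBayes, tested on simulated data) on the arrays of both groups, and the 3-strain and response contrasts on all 27 arrays as 9 groups. Calls used p below 0.01, with Benjamini-Hochberg adjustment over all genes beside it. Mice were separate animals. The p-values rest on the spread between mice within groups of 3, pooled over the groups of a fit and moderated over all genes. The highest correlation between arrays was 0.959, so none was counted as a duplicate.

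Every member may be named. Values on every array are given for up to 3 members per role with the lowest p over 3 strains, for a member above 0 and for a member called for a difference in response. Non-members come from fixed lists, at most 4 per list. The members, lists and rules were chosen with earlier results of these data known. Alternatives were quantile normalization, median-centring, a floor of 32, a filter on mean log2 of 6 (76.0% of genes and 31 members passed), the mean of probe sets, all arrays in 1 fit, no muscle arrays, a replicate block and leaving out each array. Leaving out the arrays with *Glycam1* was chosen after seeing the data. Figures were drawn with matplotlib 3.10.9.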

Additional observations from a re-analysis of the deposited data

Results flagged for a closer look

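*Aff3* was the only one of the 32 genes called for a difference in response between strains, beside 1.43% of all genes called in that comparison. Its irradiated-minus-sham difference was 0.56 higher in CBA/J than in C57BL/6J on the log2 scale (95% interval 0.17 to 0.94; limma, adjusted p = 0.653), which passed the unadjusted threshold of 0.01 and not the adjusted one. Against C57L/J the same difference was 0.48 (limma, adjusted p = 0.913) and passed neither. Every irradiated lung lay below every sham lung within both C57 strains, whereas CBA/J lungs overlapped. The CBA/J minus C57BL/6J difference was 0.48 with the mean of both probe sets and 0.45 without the arrays with *Glycam1*, neither past the unadjusted threshold, and 0.78 without the arrays with muscle transcripts, a value that rests on 1 array each in 4 of the groups. Groups held 3 mice, so no group was tested for a single array far from the others.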

How the results depend on the processing

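The count of 29 genes lower over 3 strains kept its value or reached 30 under 8 alternatives, and was 29 when any 1 of 27 arrays was left out. Leaving out 1 array gave 14 to 24 lower genes in C57L/J at 12.5 Gy and 3 to 15 at 15 Gy, 20 to 23 and 9 to 24 in C57BL/6J, and 18 to 22 and 19 to 24 in CBA/J. For 15 against 12.5 Gy it gave 0 to 1 genes in C57L/J, 0 to 3 in C57BL/6J and 0 to 4 in CBA/J. In sham lungs it gave 1 to 2 genes for C57L/J against C57BL/6J, 1 to 4 for CBA/J against C57BL/6J and 0 to 2 for CBA/J against C57L/J, and for each response difference 0 to 1. With all 27 arrays in 1 fit, 19 genes were lower in C57L/J at 15 Gy. That fit called 1 gene (C57BL/6J) and 3 (CBA/J) for 15 against 12.5 Gy, 2 for CBA/J against C57BL/6J and 1 for CBA/J against C57L/J in sham lungs. In 1 fit of the 18 arrays without muscle transcripts, which changes both the arrays and the fit and keeps 1 array in 4 groups, the counts were 23 for C57L/J at 15 Gy (15 in the pairwise fit without its 1 muscle array), 14 for CBA/J at 12.5 Gy (1 array against 1), 1 for 15 against 12.5 Gy in C57L/J and 2 for CBA/J against C57BL/6J in sham lungs. Without the arrays with *Glycam1* they were 1 and 1 for 15 against 12.5 Gy in C57L/J and C57BL/6J, 4 and 1 for CBA/J sham lungs against C57BL/6J and C57L/J, and 0 and 1 for the CBA/J response against C57BL/6J and C57L/J. With the mean of probe sets they were 1 and 2 in sham lungs (C57L/J against C57BL/6J, CBA/J against C57L/J) and 0 for the CBA/J against C57BL/6J response. The filter on low values gave 1 gene for 15 against 12.5 Gy in C57BL/6J, a floor of 32 gave 1 in CBA/J, and quantile normalization gave 1 for the C57L/J against C57BL/6J response. The share of all genes called under each of these settings is not given, and the cause of the changes was not tested. Of 10096 values for single genes under these alternatives, 301 were no longer past the threshold, 156 were newly past it, and 416 that were called under neither setting changed sign. No called value changed sign.

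Mice of different groups share only a replicate number. Over all genes, deviations of same-numbered arrays correlated between -0.11 and 0.25, and no comparison had all 3 pairs above 0.1, although CBA/J at 12.5 Gy against sham had 0.20, 0.47 and 0.25 over the genes passing the filter. With the replicate block, 20 and 13 genes were lower in C57L/J at 12.5 and 15 Gy, 21 and 9 in C57BL/6J, 20 and 21 in CBA/J, and 29 over 3 strains. The block gave 1 gene for C57L/J against C57BL/6J and 0 for CBA/J against C57BL/6J in sham lungs, and 1 each for the response of C57L/J against C57BL/6J and of CBA/J against C57L/J.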

Other observations

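Of 6 listed neutrophil markers 5 were measured in the same lungs, all with a value above 0 over the 3 strains and 2 past the threshold. These were *S100a9* and *S100a8*, calcium-binding proteins abundant in neutrophils, which were higher by 1.57 ± 0.31 (adjusted p = 0.00144) and 1.23 ± 0.27 (adjusted p = 0.00365) over the 3 strains (log2, SE, limma). The median of the list was 1.93 and 2.33 in C57BL/6J at 12.5 and 15 Gy, 1.19 and -0.21 in C57L/J, and 0.04 and 0.92 in CBA/J. Of 7 macrophage markers, *Csf1r* alone was lower (-0.32 ± 0.05, adjusted p = 0.000288). Dendritic cell markers were lower in 5 of 6 cases, with *Flt3*, the receptor of their growth factor, at -2.15 ± 0.41 (adjusted p = 0.00114).

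Probe sets of the same member gave unequal changes in some cases. *Cd37* changed by -1.37 at its brightest probe set and -2.32 at the other, *Gpr183* by -1.53 and -0.69, and *Cd22* by -1.19 and -1.60.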
